A study of Homo sapiens with 6 samples.

Results

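The 10 genes described here encode matrix metalloproteinases (MMPs) and their inhibitors: the collagenases MMP1 and MMP13, the stromelysins MMP3 and MMP10, the gelatinase MMP2, the membrane-bound MMP14, the tissue inhibitors TIMP1, TIMP2 and TIMP3, and the membrane-anchored inhibitor RECK. They were chosen by name, and all 10 had a row among the 28395 Entrez genes of the count table. RNA came from TC28a2, an immortalised human chondrocyte line, 48 hours after transfection with a control vector (3 libraries) or an FAP overexpression vector (3 libraries), and was sequenced by DRUG-seq, a multiplexed form of RNA sequencing. FAP (fibroblast activation protein) is a serine protease of the cell surface. The cell line, the transfection and the time were common to both groups, the promoter of the vector is not given in the sources used here, and nothing says that replicates were separate cultures, so the p-values cover no more than the spread from library to library, and that spread may be technical.

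MMPs are zinc endopeptidases that are made as inactive proenzymes. Collagenases cut native fibrillar collagen, stromelysins cut proteoglycans and help to activate procollagenases, and MMP14 at the cell surface activates the proenzyme of MMP2 in a complex that includes TIMP2. TIMPs bind the active site of MMPs, TIMP3 is held in the matrix and also blocks aggrecan-cutting ADAMTS proteases, and in cartilage MMP13 and MMP1 are known for the breakdown of collagen in osteoarthritis.

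RefSeq promoter sequence (GRCh38.p14) was used for 5 of the 10 genes, MMP10, MMP14, TIMP1, TIMP3 and RECK; promoters of MMP1, MMP2, MMP3, MMP13 and TIMP2 were not analysed here. The 150 bases before the start site are shown for an MMP with almost no reads (MMP10), an MMP whose level was close in both groups (MMP14) and a pair of inhibitors whose read ratio differed between the groups (TIMP1 and TIMP3), 5′ to 3′ on the strand of the gene. Capitals mark a TATA box (TATAAA) or a GC box (GGGCGG, or CCGCCC where it reads on the other strand). MMP10 lies on the minus strand at chr11:102780629-102780778, MMP14 on the plus strand at chr14:22836435-22836584, TIMP1 on the plus strand at chrX:47582286-47582435 and TIMP3 on the plus strand at chr22:32801555-32801704.
MMP10: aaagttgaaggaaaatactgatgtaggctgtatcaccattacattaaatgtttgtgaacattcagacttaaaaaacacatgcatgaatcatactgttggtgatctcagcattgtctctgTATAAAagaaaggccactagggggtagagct
MMP14: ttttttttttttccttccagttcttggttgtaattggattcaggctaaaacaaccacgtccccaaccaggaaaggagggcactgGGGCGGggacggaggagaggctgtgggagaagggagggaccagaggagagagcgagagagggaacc
TIMP1: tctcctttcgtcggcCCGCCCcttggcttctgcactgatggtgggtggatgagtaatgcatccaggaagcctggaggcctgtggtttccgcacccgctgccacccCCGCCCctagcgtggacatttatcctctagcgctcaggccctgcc
TIMP3: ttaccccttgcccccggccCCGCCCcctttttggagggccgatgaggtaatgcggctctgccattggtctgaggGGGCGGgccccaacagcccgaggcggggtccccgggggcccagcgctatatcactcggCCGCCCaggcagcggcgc

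In the 250 bases before the start, searched on both strands, the MMP10 promoter held a TATA box beginning 31 bases before the start and no GC box, with a G and C content of 34.4%. MMP14 held 1 GC box, TIMP1 held 2, RECK 3 and TIMP3 5, of which 3 are in the stretch shown. The G and C content of these 4 was 56.8% (MMP14), 64.8% (TIMP1), 63.6% (RECK) and 72.4% (TIMP3), against a median of 58% over 27305 RefSeq promoters. A GC box was present in 42.3% of those promoters and a TATA box in 11.1%. The AP-1 motif TGAGTCA, searched on both strands and found in 4.16% of promoters, had no exact match in any of the 5 windows. Variants of this motif were not searched, so AP-1 sites with other letters may be present. No matches overlapped. These matches describe letters in a window and not bound sites.

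Library totals ran from 5736056 to 13839743 gene counts. FAP was at 223 to 351 CPM (counts per 1000000 counts of the library, scaled by TMM, an edgeR method that sets libraries on a common scale) in the FAP libraries and at 0 to 1.20 CPM in the controls, so all 6 libraries matched their labels. FAP replicate 3 stood apart from the other FAP libraries (chi-square per degree of freedom of 17.5 and 16.7, against 6.06 between replicates 1 and 2). Of 15 chondrocyte markers SOX9 alone had enough reads to be tested. COL2A1 had at most 4 counts and ACAN at most 15 in a library, and the list summed to 27.2 to 36.2 CPM in controls and 34.9 to 45.4 CPM in FAP libraries, so the defining cartilage matrix markers were near 0 in this line. Markers of fibroblasts summed to 618 to 663 CPM in controls and 612 to 641 CPM in FAP libraries. COL6A3 held most of that sum, with means of 434.6 and 410.1 CPM. PDGFRB, THY1 and FBLN1 had control means of 57.35 to 75.68 CPM. PDGFRA, DPT, LUM, DCN, PI16 and COL15A1 had means of at most 3.249 CPM in either group. Markers of leukocytes and endothelium summed to 17.0 to 19.1 and 19.0 to 20.5 CPM, mostly from CD68 (88 to 240 counts in a library). CDH5 was at 0 in every library and PTPRC at no more than 4 counts. PECAM1 had 1, 4 and 9 counts in controls and 12, 20 and 24 in FAP libraries (log2 fold change 1.74, adjusted p = 0.293). CD14 and LYZ, also at low counts, were likewise higher in CPM in every FAP library than in any control. CD14 had 5, 4 and 12 counts in controls and 10, 19 and 15 in FAP libraries (log2 fold change 0.779, adjusted p = 0.659). LYZ had 0, 0 and 2 counts in controls and 4, 6 and 4 in FAP libraries, and was not tested. The part of any of these in the results below was not tested.

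FAP vector was compared with control vector to ask how raised FAP alters RNA levels in these cells. Over all 13373 genes that passed the low-count filter, 30 had an adjusted p under 0.05 in edgeR's quasi-likelihood test (0.224% of those tested), 13 higher and 17 lower in FAP libraries. Scaling by library totals gave 13 higher and 6 lower. Leaving out 1 library gave 4, 7 and 3 calls without control replicates 1, 2 and 3, and 38, 6 and 248 without FAP replicates 1, 2 and 3. Of the 10 genes, 9 passed the filter and 1 was called, MMP1, which was lower; the share of all tested genes called lower was 0.127% and the share called higher 0.0972%. DESeq2 also called 1 of the 10 (MMP1; 0.726% of the genes it gave an adjusted p) and limma-voom none (0.157% of all genes). The other 8 did not pass, and DESeq2 gave no adjusted p for MMP3 and MMP13. TIMP2 was the 1 other with an unadjusted p under 0.05, as were 9.91% of all genes. Of the 9 tested genes 6 had negative log2 fold changes, with a median of -0.16, against 0.0031 over all genes tested. In 3 of the 9, MMP1, TIMP1 and TIMP2, every FAP library lay below every control, and in none above; over all tested genes 7.99% lay below and 7.96% above in this way (16% in either direction).

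**Figure D1:**
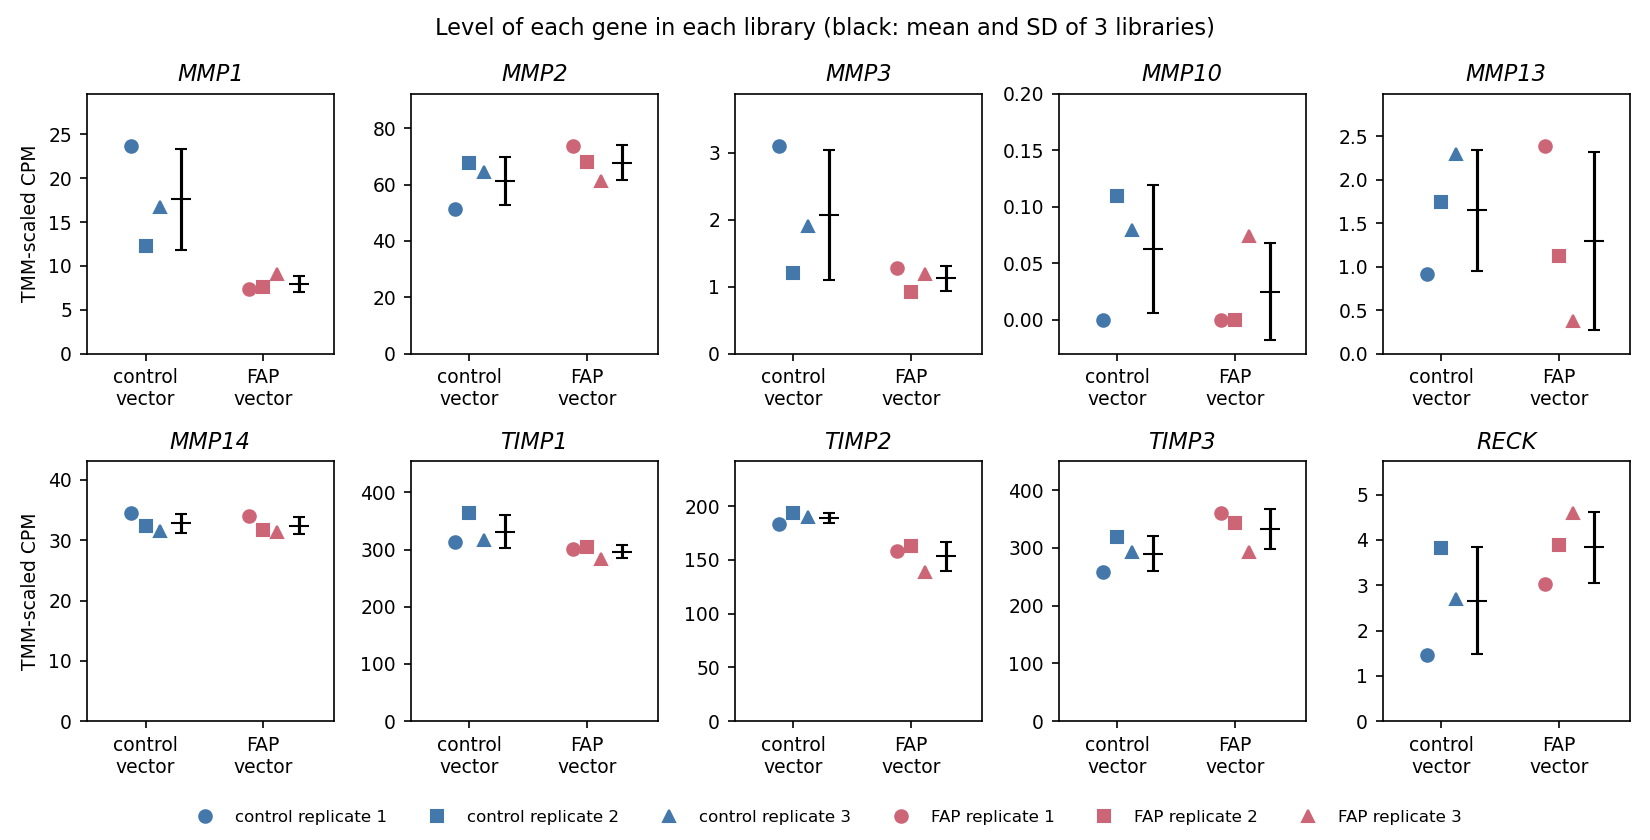
Level of each of the 10 genes (y axis, TMM-scaled CPM, a separate scale for each gene) in 3 control vector and 3 FAP vector libraries (x axis), with black bars for mean and SD. The FAP libraries lie below all controls for MMP1 (7.34 to 9.04 against 12.2 to 23.7 CPM), TIMP1 and TIMP2, and the groups overlap for the other 7 genes.

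MMP1, interstitial collagenase (Entrez 4312, GRCh38.p14 chromosome 11, 102789919 to 102798160), was lower in the FAP libraries and was the 1 called gene of the 10. It was counted at 23.7, 12.2 and 16.8 CPM in control replicates 1, 2 and 3 and at 7.34, 7.55 and 9.04 CPM in FAP replicates 1, 2 and 3. The groups did not overlap, the FAP libraries lay close together, and the controls were spread widely, with replicate 1 the highest. The means were 17.6 ± 5.80 and 7.98 ± 0.927 CPM (SD, n = 3 each), from 112 to 212 counts in a control library and 46 to 122 in an FAP library. MMP1 fell by 1.10 on the log2 scale (SE 0.22, 95% interval -1.55 to -0.65, adjusted p = 0.0341), a 2.15-fold lower level. In RNA from whole cultures, fewer cells with MMP1 RNA and less of it per cell cannot be told apart. The call was lost without control replicate 1 (-0.86, adjusted p = 0.278), without FAP replicate 2 (-1.06, adjusted p = 0.180) and without control replicate 3 (-1.13, adjusted p = 0.232), and the value stayed between -1.30 and -0.86 in all 6 fits that leave out a library. It was also lost with limma-voom (adjusted p = 0.0691), with library totals (0.0567) and with counts thinned to the smallest library (0.0604), while DESeq2 gave an adjusted p of 0.00236.

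**Figure D2:**
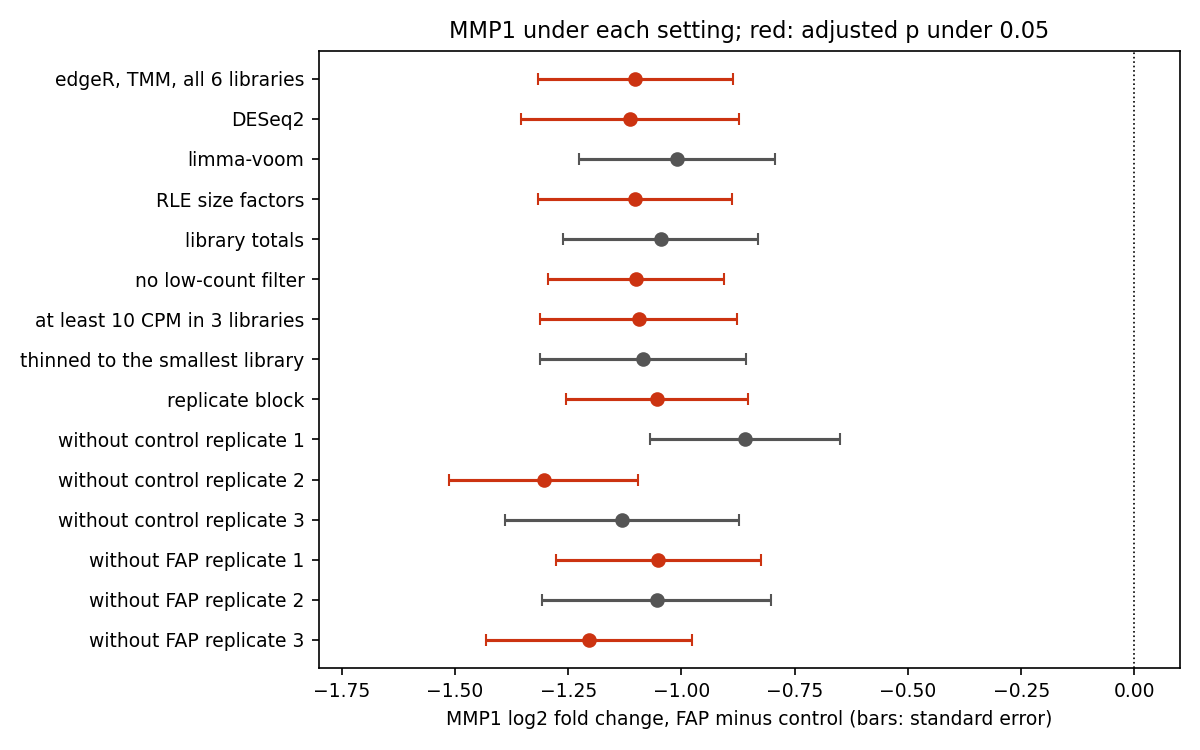
Log2 fold change of MMP1, FAP minus control (x axis, bars are standard errors), under the main fit and 14 other settings (y axis), red where the adjusted p over all tested genes was under 0.05. Every value is negative, from -1.30 to -0.86, and 6 of the 14 other settings do not pass.

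The other collagenase, MMP13 (chromosome 11, 102942995 to 102955732), which acts mainly on the type II collagen of cartilage, was near the limit of counting and showed no called difference. It had 5, 16 and 29 counts in control replicates 1, 2 and 3 and 15, 16 and 5 in FAP replicates 1, 2 and 3, or 0.913, 1.75 and 2.29 CPM against 2.39, 1.13 and 0.371 CPM. The highest and the lowest library were both FAP libraries, so the groups overlapped throughout. The log2 fold change was -0.58 (SE 0.57, 95% interval -1.76 to 0.60, adjusted p = 0.779), and it ran from -1.19 without FAP replicate 1 to -0.089 without FAP replicate 3. The interval holds both a fold change as large as that of MMP1 and a rise, so at this depth these collagenases cannot be said to differ or to act alike.

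The stromelysins were also low. MMP3, stromelysin 1 (chromosome 11, 102835801 to 102843609), was at 3.10, 1.20 and 1.90 CPM in controls (17, 11 and 24 counts) and at 1.28, 0.917 and 1.19 CPM in FAP libraries (8, 13 and 16 counts). Only the highest FAP library exceeded the lowest control, and control replicate 1 was the highest, as it was for MMP1. Its log2 fold change came to -0.84 (SE 0.48, 95% interval -1.85 to 0.17, adjusted p = 0.584), and it ran from -1.11 without control replicate 2 to -0.50 without control replicate 1. MMP10, stromelysin 2 (chromosome 11, 102770502 to 102780628), had 0, 1 and 1 counts in controls and 0, 0 and 1 in FAP libraries and was removed by the filter. The count of 0 in control replicate 1 allows up to 0.548 CPM, and those in FAP replicates 1 and 2 up to 0.479 and 0.212 CPM (3 counts of the library, for counting error only), so no difference was detectable.

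MMP1, MMP3, MMP10 and MMP13 belong to a run of 9 MMP genes on chromosome 11, which spans 435 kb from MMP7 to MMP13 (102520508 to 102955732). Across this cluster MMP1 held the most reads in every library. MMP7, matrilysin, at the far end of the run, had 18, 37 and 44 counts in controls and 18, 48 and 48 in FAP libraries, with a log2 fold change of -0.13 (adjusted p = 0.925). MMP8 was at 0 in all 6 libraries, and MMP12, MMP20 and MMP27 had at most 6, 1 and 2 counts. WTAPP1, a pseudogene that overlaps MMP1 and MMP3, had at most 1 count in a library, so few reads were given to it; the strand setting of the counting is not given in the sources used here.

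MMP2 and MMP14, the pair that works together at the cell surface, showed no called difference and had narrower intervals. MMP2 (gelatinase A, chromosome 16, 55478830 to 55506691) was at 51.5, 67.6 and 64.5 CPM in controls and 73.9, 68.0 and 61.4 CPM in FAP libraries. The groups overlapped, and control replicate 1 was the low library. For MMP2 the log2 fold change was 0.13 (SE 0.12, 95% interval -0.11 to 0.38, adjusted p = 0.747), and it ran from 0.032 without control replicate 1 to 0.21 without control replicate 2. MMP14 (membrane type 1 MMP, chromosome 14, 22836585 to 22847758) was at 34.5, 32.3 and 31.5 CPM in controls and 34.0, 31.8 and 31.4 CPM in FAP libraries, all 6 within a narrow range. Its log2 fold change was -0.017 (SE 0.12, 95% interval -0.26 to 0.23, adjusted p = 0.978), so a change of MMP14 by the amount seen for MMP1 lies outside its interval. The sign of the MMP14 value turned to 0.037 with library totals.

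The inhibitors TIMP1 and TIMP2 were lower in each FAP library than in any control, by small amounts that did not pass the test over all genes. TIMP2 (chromosome 17, 78852977 to 78925387), which blocks MMPs and also takes part in the activation of MMP2, was at 184, 194 and 189 CPM in controls and 158, 163 and 138 CPM in FAP libraries. The control values lay close together and FAP replicate 3 was the lowest. TIMP2 had a log2 fold difference of -0.30 (SE 0.10, 95% interval -0.51 to -0.10, unadjusted p = 0.0054, adjusted p = 0.287). TIMP1, a soluble secreted inhibitor (chromosome X, 47582436 to 47586789), was at 313, 364 and 317 CPM in controls and 301, 304 and 284 CPM in FAP libraries. The gap between the lowest control (313 CPM) and the highest FAP library (304 CPM) was narrow. For TIMP1 the log2 value was -0.16 (SE 0.10, 95% interval -0.37 to 0.04, adjusted p = 0.609), and without control replicate 2 it was -0.084.

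TIMP3 and RECK had positive values. TIMP3, the matrix-bound inhibitor (chromosome 22, 32801705 to 32863041), was at 259, 319 and 292 CPM in controls and 360, 344 and 294 CPM in FAP libraries. FAP replicates 1 and 2 lay above all controls, and FAP replicate 3 lay among them. The log2 fold change was 0.19 (SE 0.11, 95% interval -0.03 to 0.42, adjusted p = 0.560), and it ran from 0.12 without control replicate 1 (adjusted p = 0.861) to 0.28 without FAP replicate 3 (adjusted p = 0.159). RECK, which restrains several MMPs at the membrane (chromosome 9, 36036913 to 36124455), was at 1.46, 3.82 and 2.69 CPM in controls (8, 35 and 34 counts) and 3.03, 3.88 and 4.59 CPM in FAP libraries (19, 55 and 62 counts). The groups overlapped at low counts. The log2 fold change was 0.50 (SE 0.35, 95% interval -0.23 to 1.23, adjusted p = 0.662), and it ran from 0.28 without control replicate 1 to 0.83 without control replicate 2. TIMP1, TIMP2 and TIMP3 overlap SYN1, CEP295NL and SYN3, which had at most 10, 3 and 34 counts in a library.

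**Figure D3:**
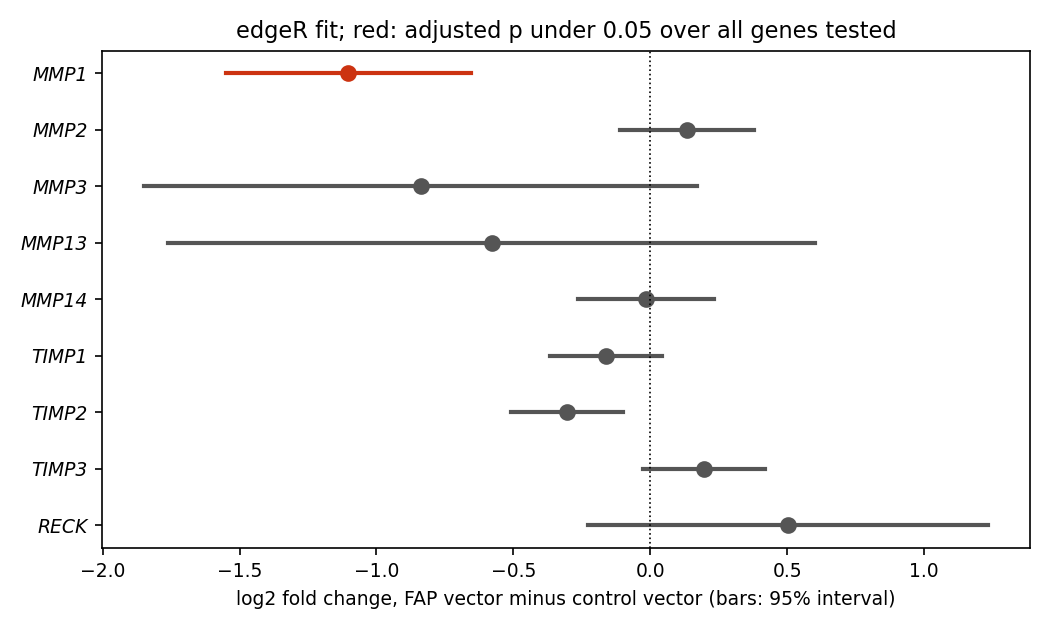
Log2 fold change, FAP minus control (x axis, bars are 95% intervals from the edgeR fit), for the 9 tested genes (y axis), red where the adjusted p over all tested genes was under 0.05. MMP1 alone passes, the intervals of MMP2, MMP14 and the TIMPs are narrow, and those of MMP3, MMP13 and RECK are wide.

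Ratios of reads between genes within a library do not depend on how libraries are scaled. They were computed for the 15 pairs among the 6 genes with at least 40 counts in every library (MMP1, MMP2, MMP14, TIMP1, TIMP2 and TIMP3); the pairs described were chosen after their values were seen, so no test is given. For every 100 TIMP3 reads there were 70.9, 60.6 and 64.9 TIMP2 reads in controls and 43.9, 47.4 and 47.1 in FAP libraries. The groups were well apart, FAP replicate 3 lay with the other FAP libraries, and the mean ratio in FAP libraries was 0.704 of that in controls. TIMP1 reads per 100 TIMP3 reads were 121, 114 and 109 in controls and 83.7, 88.3 and 96.6 in FAP libraries, again with no overlap. The balance of reads among these 3 inhibitors therefore lay further toward TIMP3 in each FAP library than in any control, although none of the 3 genes passed the test by itself. TIMP1 reads per 100 TIMP2 reads overlapped between the groups (167 to 188 and 187 to 205).

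Among ratios of protease to inhibitor, those of MMP1 to TIMP1 and those of MMP2 to TIMP1 or TIMP2 differed between the groups in opposite directions. MMP1 reads per 100 TIMP1 reads were 7.58, 3.36 and 5.29 in controls and 2.44, 2.49 and 3.19 in FAP libraries, so the groups did not overlap but came close at control replicate 2. Per 100 TIMP2 reads, MMP1 had 12.9, 6.32 and 8.86 reads in controls and 4.64, 4.64 and 6.54 in FAP libraries, which overlap. MMP2 reads per 100 TIMP1 reads were 16.4, 18.6 and 20.3 in controls and 24.5, 22.4 and 21.7 in FAP libraries, without overlap. MMP2 reads per 100 TIMP2 reads were 28, 35 and 34.1 in controls and 46.7, 41.7 and 44.4 in FAP libraries, 1.37 times higher in the mean and without overlap. MMP14 reads per 100 TIMP2 reads were 18.8, 16.7 and 16.6 in controls and 21.5, 19.5 and 22.7 in FAP libraries, also without overlap. Against TIMP3 the groups overlapped for MMP2, at 19.9, 21.2 and 22.1 reads per 100 in controls and 20.5, 19.8 and 20.9 in FAP libraries. Per 100 TIMP3 reads, MMP1 had 9.17, 3.83 and 5.75 reads in controls and 2.04, 2.2 and 3.08 in FAP libraries, without overlap. The MMP14 ratios to TIMP1 and to TIMP3 overlapped. Pairs that share a gene are not independent, and the share of other gene pairs without overlap was not computed. These are ratios of reads, not of protein or of active enzyme.

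**Figure D4:**
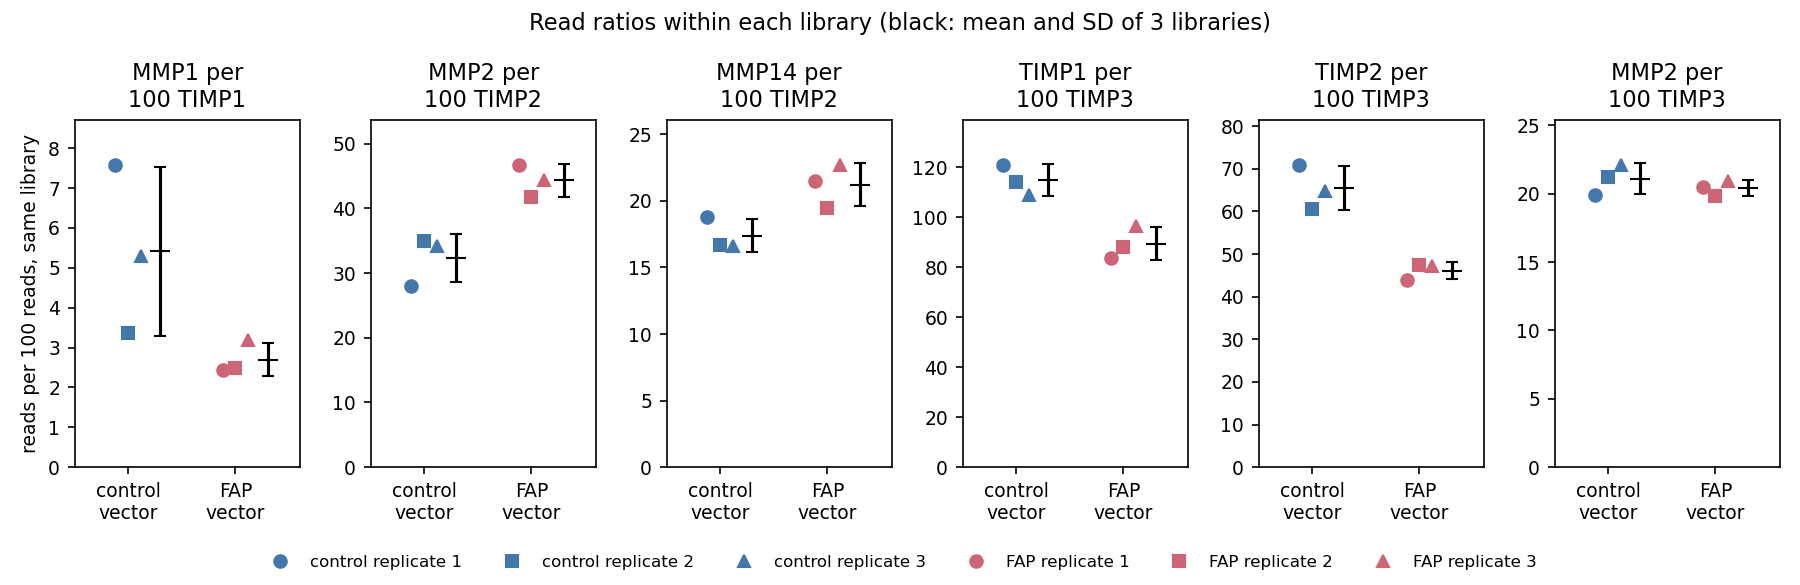
Reads of a gene per 100 reads of an inhibitor in the same library (y axis from 0, 6 pairs), in 3 control vector and 3 FAP vector libraries (x axis), with black bars for mean and SD. MMP1 per TIMP1, TIMP1 per TIMP3 and TIMP2 per TIMP3 are lower in every FAP library, MMP2 and MMP14 per TIMP2 are higher, and MMP2 per TIMP3 overlaps.

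Levels between genes were set on a scale of CPM per kb of the longest GENCODE transcript. DRUG-seq usually starts copying at the poly(A) tail, where a longer transcript adds few reads, so this order is only a guide. In controls TIMP1 was at 303 ± 25.7 CPM per kb, TIMP3 at 63.0 ± 6.55, TIMP2 at 51.7 ± 1.34 and MMP2 at 16.4 ± 2.29 (SD, n = 3), with no overlap of libraries between neighbours. On this scale MMP1 (8.93 ± 2.94 CPM per kb) and MMP14 (8.79 ± 0.418) could not be told apart in controls. Nor could MMP3 (1.03 ± 0.478), MMP13 (0.608 ± 0.256) and RECK (0.544 ± 0.242). By CPM without division by length, MMP14 (31.5 to 34.5 CPM) lay above MMP1 (12.2 to 23.7 CPM) in every control. MMP10 was lowest at 0.0357 CPM per kb. In FAP libraries MMP1, at 3.73 to 4.59 CPM per kb, lay below MMP14, at 8.42 to 9.11, in each library. TIMP1, TIMP3, TIMP2 and MMP2 followed each other as in controls, at means of 271, 72.3, 41.9 and 18.1 CPM per kb, and MMP3, MMP13 and RECK again overlapped. Part of this order depends on the division by length. By CPM, TIMP1 lay above TIMP3 within each control library but below it within each FAP library (301, 304 and 284 against 360, 344 and 294 CPM). RECK (3.03 to 4.59 CPM) lay above MMP3 (0.917 to 1.28 CPM) and MMP13 (0.371 to 2.39 CPM) in FAP libraries by CPM.

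The genes most like MMP1 across the 6 libraries were sought among 8548 named genes that were tested and averaged 10 CPM or more. By Pearson's correlation of log2 CPM over 6 samples, these were NQO1 (0.996), VEGFB (0.993), PLK3 (0.9865), IL32 (0.986) and NEDD4L (0.9845). With so many candidates and so few samples such values arise readily, and they are a description only. NQO1, a quinone reductase, was at 280, 235 and 251 CPM in controls and 209, 209 and 215 CPM in FAP libraries, with control replicate 1 highest and control replicate 2 the lowest control, as for MMP1. The 5 genes had log2 fold changes of -0.61 (PLK3) to -0.12 (VEGFB), and none was called (smallest adjusted p = 0.216).

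None of the other MMP genes was called. Of 17 listed, 8 were tested, 7 of these with negative values and a median of -0.22. An unadjusted p under 0.05 was reached by 1, MMP19, against 9.91% of all genes. DESeq2 and limma-voom called none, but DESeq2 gave MMP19 no adjusted p and so could not call it. MMP19 was at 2.92, 2.40 and 3.17 CPM in controls and 1.12, 1.76 and 1.33 CPM in FAP libraries, without overlap (log2 fold change -0.97, SE 0.40, adjusted p = 0.429). MMP9, gelatinase B, was at 17.4 ± 2.65 and 15.1 ± 2.86 CPM, with overlap (-0.23, adjusted p = 0.691). The 9 not tested were MMP8 and MMP26, at 0 in every library, and MMP12, MMP20, MMP21, MMP23B, MMP24, MMP27 and MMP28, at no more than 14 counts. Of 3 other metalloproteinase inhibitors TFPI2 alone was tested (-0.16, adjusted p = 0.821), and TIMP4 was at 0 in all libraries.

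Among 20 activators and cell-surface partners of MMPs, 18 were tested and 1 was called, against 0.224% of all genes, and 5 had an unadjusted p under 0.05, against 9.91% of all genes. PLAUR, the urokinase receptor that focuses plasmin formation, an activator of several proMMPs, was at 117, 110 and 121 CPM in controls and 78.8, 81.4 and 80.6 CPM in FAP libraries. The groups were well apart, and PLAUR fell by 0.53 on the log2 scale (SE 0.10, adjusted p = 0.0264). Its call was lost without each of the control libraries and without FAP replicate 2 (largest adjusted p = 0.232) and with library totals (0.0636). The median of the 18 was 0.026, with 11 positive and 7 negative.

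Transcription factors known to act on MMP promoters were all measured and none was called. Of the 20, 11 were negative with a median of -0.048, and DESeq2 and limma-voom called none. An unadjusted p under 0.05 was reached by 4, against 9.91% of all genes. ETV5 and ELK1 were lower, while STAT3 (log2 fold change 0.26, adjusted p = 0.433) and JUNB (0.27, adjusted p = 0.469) were higher. The ETS factors ETV5 and ELK1 had the smallest p-values, at 71.8 ± 6.02 and 53.6 ± 5.65 CPM for ETV5 (log2 fold change -0.41, adjusted p = 0.179) and 59.6 ± 5.42 and 46.7 ± 3.63 CPM for ELK1 (-0.34, adjusted p = 0.295). Of 16 inducers of MMPs and their receptors, 10 were tested and none was called by edgeR or limma-voom. In this list 3 had an unadjusted p under 0.05, against 9.91% of all genes. IL1A, IL1B and TNF had at most 7, 3 and 3 counts, and OSM was at 0. HBEGF, an EGF receptor ligand, was at 103, 79.5 and 85.6 CPM in controls and 44.5, 63.0 and 70.4 CPM in FAP libraries, without overlap (-0.57, SE 0.14, adjusted p = 0.110), and DESeq2 called it (adjusted p = 0.0339). OSMR, the oncostatin M receptor, was at 32.3 ± 6.01 and 40.9 ± 3.43 CPM (0.31, adjusted p = 0.445). Without FAP replicate 3 ETV5 and HBEGF were called (adjusted p of 0.0162 and 2.46e-04).

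Matrix proteins cut by MMPs had mostly positive values, and none was called. Of 16 listed, 14 were tested, 12 with positive values and a median of 0.17, against 6776 positive of 13373 and a median of 0.0031 over all genes tested. An unadjusted p under 0.05 was reached by 6 of the 14, against 9.91% of all genes, and DESeq2 and limma-voom called none. COL3A1, a fibrillar collagen, was at 9.50, 14.3 and 12.6 CPM in controls and 16.8, 19.1 and 17.8 CPM in FAP libraries, without overlap (log2 fold change 0.54, SE 0.17, adjusted p = 0.276). BGN, the proteoglycan biglycan, was at 53.8 ± 7.30 and 77.5 ± 19.5 CPM (0.53, SE 0.14, adjusted p = 0.189). FAP replicate 2 was the high library for BGN, and without it the value was 0.30. The BGN call was made without FAP replicate 1 or 3 (adjusted p of 0.0472 and 0.00341).

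**Figure D5:**
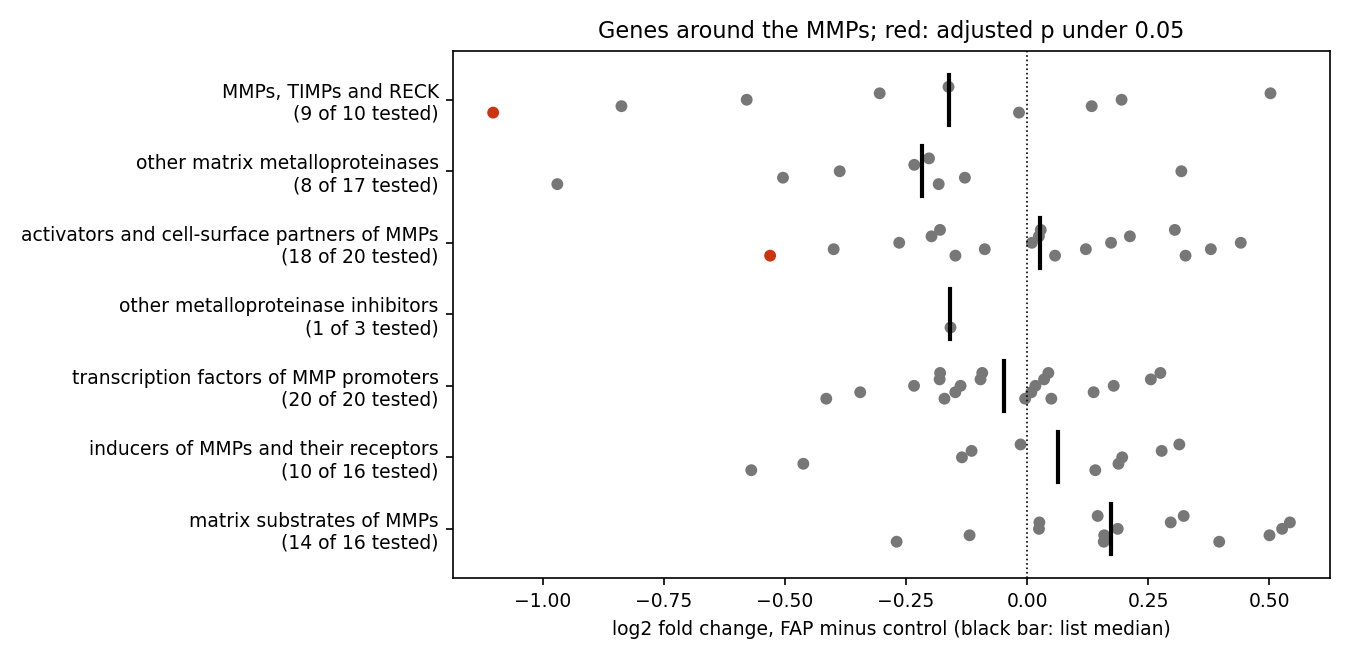
Log2 fold change, FAP minus control (x axis), of each tested gene in the set and in 6 lists of related genes (y axis, number tested of number listed), with black bars for list medians and red points for an adjusted p under 0.05. MMP1 and PLAUR are the red points, and medians run from -0.22 for the other MMPs to 0.17 for matrix substrates.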

How the data were processed

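The authors deposited whole-number read counts per Entrez gene for 6 libraries, not normalized; HISAT2, featureCounts, Subread and GRCh38 are named per the submitters' processing notes, with versions, strand setting and use of molecular identifiers not given in the sources used here. Without molecular identifiers amplification copies count as reads. Groups came from the labels. Symbols and positions came from RefSeq (GRCh38.p14; 27745 of 28395 IDs matched). edgeR 4.0.16 in R 4.3.3 was run with TMM scaling, filterByExpr (minimum count 10, minimum total 15), a two-sided quasi-likelihood test and Benjamini-Hochberg adjustment over the 13373 genes tested; SE is the log2 fold change divided by the square root of F. Fold changes are FAP minus control. DESeq2 1.42.0, limma-voom (limma 3.58.1), other scaling and filters, thinning, a replicate block and each library left out were alternatives. The fit was tested on simulated data. The genes and lists were chosen with earlier results of these data known; named were all 10 genes and, per list, called members or else the 2 with the smallest p. Other genes named were chosen after their values were seen. Figures used matplotlib 3.10.9.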

Additional observations from a re-analysis of the deposited data

How the results depend on the processing

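Genes called over the whole table numbered 30, and 82 with DESeq2, 19 with library totals, 152 without the low-count filter, 16 with thinned counts and 3 (without control replicate 3) to 248 (without FAP replicate 3) when each library was left out. The 1 member called, MMP1, became 0 with limma-voom, library totals and thinned counts, and 0 to 1 when each library was left out, with 2 or 3 members at an unadjusted p under 0.05 in each of these fits. Genes of the related lists called numbered 1, and 2 with DESeq2, 0 with library totals (21 at an unadjusted p under 0.05), 3 without the filter and 0 (13 to 19 at an unadjusted p under 0.05) to 5 (without FAP replicate 3) when each library was left out. MMP14 turned sign with library totals (0.037) and ranged from -0.046 to 0.017 without single libraries, and TFPI2 ranged from -0.31 to 0.053 in the same fits. The other 8 tested members kept their sign in all settings that could be fitted; MMP3 and MMP13 did not pass the 10 CPM filter or the filter on thinned counts, and RECK did not pass the former. Some of these fits also hold fewer libraries or genes. The cause of the differences between settings was not tested.

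Deviations from the group means correlated at -0.0039, 0.020 and -0.0041 between control and FAP libraries with the same replicate number. Control replicate 1 correlated best with FAP replicate 3 (0.0188). Deviations cancel out within each group, so these values cannot decide whether replicate numbers pair the samples. With the replicate block 44 genes, 1 member (MMP1, -1.06, adjusted p = 0.0243) and 1 gene of the related lists were called. Depth limits MMP3, MMP10, MMP13 and RECK, with at most 62 counts in a library.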

Other observations

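MMP21 had 0 counts in all 3 control libraries and 2, 7 and 3 counts in FAP replicates 1, 2 and 3. It was removed by the low-count filter and not tested, and its values were singled out after they were seen. The highest FAP level, 0.494 CPM, lies under the 0.548 CPM that the count of 0 in control replicate 1 allows and above the 0.328 and 0.237 CPM allowed in control replicates 2 and 3 (3 counts of each library, for counting error only). FAP replicate 1, at 0.319 CPM, lies above the level allowed in control replicate 3 only. FAP replicate 3, at 0.222 CPM, lies under the level allowed in every control.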
